A study of Rattus norvegicus with 4 samples.

Results

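Transcripts of 10 genes of mitochondrial fission, fusion, mitophagy and mitochondrial DNA packaging were followed in cardiomyocytes treated with phenylephrine (PE). The genes were chosen by name, namely Pink1, Bnip3, Bnip3l, Fundc1, Dnm1l, Fis1, Mfn1, Mfn2, Opa1 and Tfam, out of 32883 genes in the count table. Each name belonged to 1 identifier, and all 10 genes passed the filter on low counts. The cells were neonatal rat ventricular cardiomyocytes, taken from the hearts of Sprague-Dawley rats on postnatal day 2 and cleared of part of the other heart cells by letting those attach to a plate first. The PE group (2 libraries) received 20 µM PE, an agonist of alpha-adrenergic receptors that induces hypertrophy of these cells in culture, for 24 h, and the control group (2 libraries) is labelled as untreated. All cells were grown in high-glucose medium with serum, and total RNA depleted of ribosomal RNA was sequenced. The labels do not say whether replicates were separate cultures, so p-values measure the spread between these libraries, which may be technical.

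Mitochondria divide and join continually. The dynamin-related GTPase encoded by Dnm1l is recruited to the outer membrane and constricts it, while the mitofusins join outer membranes and OPA1 joins inner membranes. Damaged mitochondria are removed by mitophagy, either after the kinase PINK1 builds up on them and recruits the ubiquitin ligase Parkin, or through receptors in the outer membrane such as BNIP3, BNIP3L and FUNDC1, which bind the coat proteins of autophagosomes directly. Cardiomyocytes are packed with mitochondria, and the heart depends on both processes.

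Pink1 fell and Bnip3 rose with PE, and the other 8 genes did not pass the test. Pink1 fell to 0.326 of its control level, whereas Bnip3 was 2-fold higher. The test was edgeR's quasi-likelihood test over 15257 genes, and a change means an adjusted p under 0.05. Of all genes tested 15.7% passed, 7.39% higher and 8.3% lower, so 2 of 10 is near the background of the whole table. The median log2 fold change of the 10 genes was 0.15, against -0.006 over all genes tested.

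The stretches of genome just before the start sites of the pair of genes that changed are shown because both hold the E-box letters CACGTG, the core bound by many basic helix-loop-helix factors, although the transcripts moved in opposite directions. The sequences are from RefSeq on build GRCr8, on the minus strand and written 5′ to 3′, and reach from 250 bases before the annotated start to 50 after it. The Pink1 window is chr5:155825901-155826200 and the Bnip3 window is chr1:203154913-203155212. Capitals mark each CACGTG.
Pink1: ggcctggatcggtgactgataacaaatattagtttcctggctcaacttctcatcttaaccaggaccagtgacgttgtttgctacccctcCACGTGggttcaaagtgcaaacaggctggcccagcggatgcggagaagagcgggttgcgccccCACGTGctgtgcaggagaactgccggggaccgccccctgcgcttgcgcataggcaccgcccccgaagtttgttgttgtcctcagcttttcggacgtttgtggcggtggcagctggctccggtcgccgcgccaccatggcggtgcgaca
Bnip3: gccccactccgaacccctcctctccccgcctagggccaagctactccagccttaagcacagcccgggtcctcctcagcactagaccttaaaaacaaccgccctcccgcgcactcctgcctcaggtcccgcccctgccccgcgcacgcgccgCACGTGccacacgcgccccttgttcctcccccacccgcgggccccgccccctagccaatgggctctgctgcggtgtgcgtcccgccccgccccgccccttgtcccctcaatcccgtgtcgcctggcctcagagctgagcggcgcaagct

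Pink1 held 2 matches, which began 161 and 98 bases before the start, and Bnip3 held 1, which began 99 bases before it. Both strands were searched, and CACGTG occurred in 6.42% of 33469 such windows in the table. Every CACGTG also contains ACGTG, a form of the core of the hypoxia response element, which 19.3% of windows hold. Other forms of that core were not searched. Among the 7 of the 10 genes with a window in the table, ACGTG was also found for Opa1. The ETS-type letters CCGGAAGT, present in 3.81% of windows, were found for Mfn1, Tfam and Fis1, and the forkhead letters TGTTTAC, present in 3.78%, for Dnm1l. These matches describe letters in the windows, and binding was not measured.

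Pink1 (ENSRNOG00000015385) encodes the kinase that marks depolarised mitochondria. It had 191 and 206 CPM (the count relative to library size after TMM adjustment) in the PE libraries, against 723 and 495 CPM in the control libraries. The PE libraries lay far below both controls, and the controls differed 1.46-fold from each other. Its log2 fold change was -1.62 ± 0.20 (SE; 95% interval -2.07 to -1.16; adjusted p = 0.000516, edgeR), which is 3.07-fold lower and ranks 417 from the lowest of the 15257 log2 fold changes. Leaving out any single library kept the call, with log2 fold changes of -1.86 to -1.31 and adjusted p-values of at most 0.00105.

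Bnip3 (ENSRNOG00000017243), which encodes an outer membrane mitophagy receptor known as a target of hypoxia-inducible factors, went the other way. It had 108 and 95 CPM in the PE libraries, against 47.9 and 53.7 CPM in the control libraries. The groups did not overlap, and each pair of replicates agreed within 1.14-fold. The log2 fold change was 1.00 ± 0.17 (SE; 95% interval 0.63 to 1.37; adjusted p = 0.00266). Without PE replicate 1 it was 0.91 and no longer passed (adjusted p = 0.0771), and in each of the other 3 fits with a library left out it passed.

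**Figure D1:**
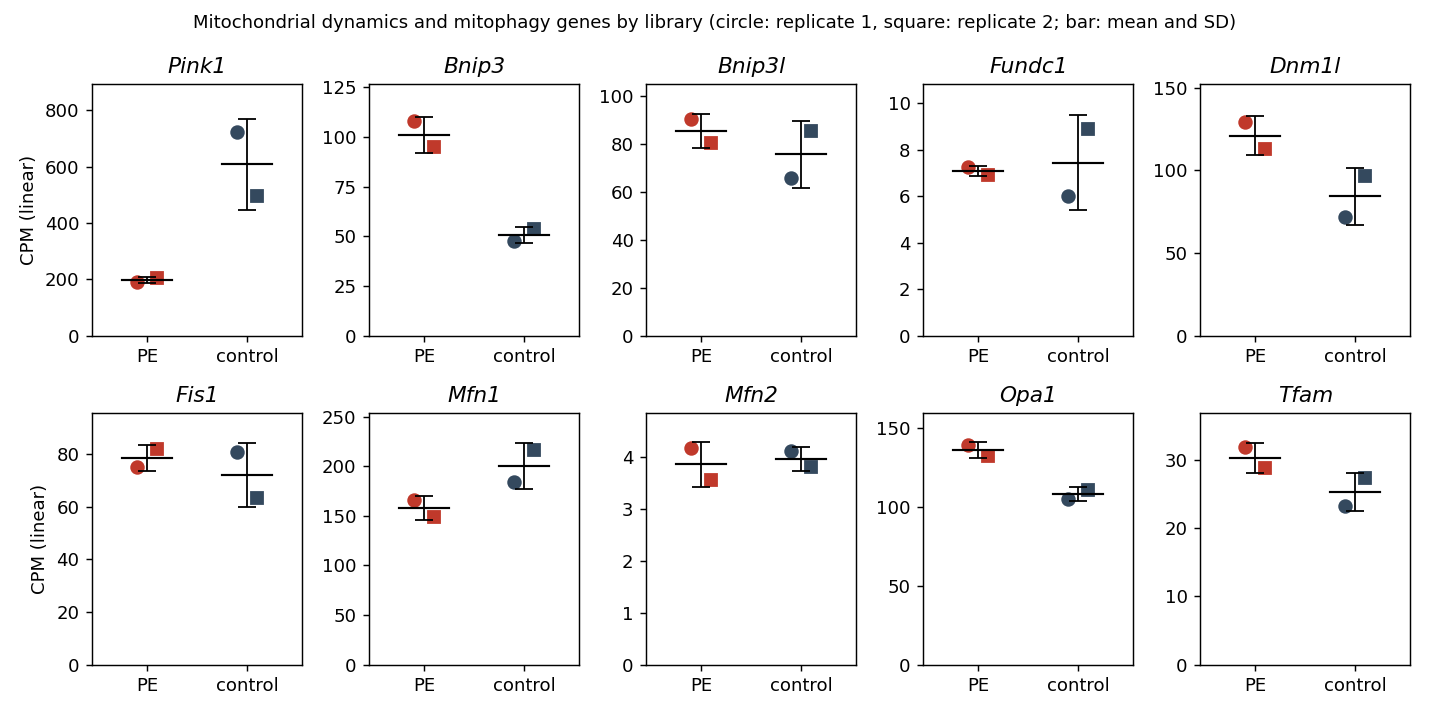
CPM of each gene in the PE libraries (left, red) and control libraries (right, dark), on linear axes that start at 0; circles are replicate 1, squares replicate 2, and bars the mean and SD of 2 libraries. Pink1 sits at 191 and 206 CPM with PE, below controls at 723 and 495 CPM, and Bnip3 lies above its controls.

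Bnip3l (ENSRNOG00000009820), also called Nix, encodes the close relative of BNIP3 that clears mitochondria from maturing red cells. It had 90.1 and 80.1 CPM with PE, against 65.6 and 85.4 CPM in controls, and the groups overlapped. Its log2 fold change was 0.17 ± 0.18 (95% interval -0.23 to 0.57; adjusted p = 0.586). The log2 ratio of Bnip3l to Bnip3 counts in a library, which no scaling affects, was -0.26 and -0.25 with PE, against 0.45 and 0.67 in controls. In both PE libraries the count of Bnip3 exceeded that of Bnip3l, and in both controls it was the smaller of the pair. Counts were not adjusted for transcript length, so their order does not show which transcript was more abundant. The ratio differed by -0.82 between the group means (exact permutation test, two-sided, p = 0.333, the smallest that 2 libraries against 2 allow), and by -0.92 to -0.71 with any single library left out.

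Fundc1 (ENSRNOG00000003470), whose protein is a mitophagy receptor controlled by phosphorylation, had 7.25 and 6.93 CPM with PE, against 6.02 and 8.89 CPM in controls. The controls spread 1.48-fold and enclosed both PE values. The log2 fold change of Fundc1 was -0.07 ± 0.23 (95% interval -0.58 to 0.44; adjusted p = 0.881), and it was 0.24 without control replicate 2.

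Dnm1l (ENSRNOG00000001813) encodes the GTPase that constricts mitochondria. It had 129 and 113 CPM with PE, against 71.9 and 96.4 CPM in controls, so both PE libraries lay above both controls. The log2 fold change of 0.52 ± 0.19 had a 95% interval of 0.11 to 0.94 but did not pass across all genes (adjusted p = 0.0883), nor in the authors' deposited table (adjusted p = 0.0599). Dnm1l passed without control replicate 2 (0.75, adjusted p = 1.4e-05) and without a filter on low counts (adjusted p = 0.0358). With 1 control library left, the spread comes from the PE pair alone and the lone control is assumed to vary like it. Calls were far more common over all genes in such fits, and the reason was not tested.

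Fis1 (ENSRNOG00000001420), which encodes an outer membrane protein that can take part in recruiting the fission machinery, had 74.9 and 81.9 CPM with PE, against 80.6 and 63.4 CPM in controls. The groups overlapped, and the log2 fold change was 0.12 ± 0.18 (95% interval -0.27 to 0.51; adjusted p = 0.705). It was -0.04 without control replicate 2.

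Mfn1 (ENSRNOG00000011057), a mitofusin gene, had 166 and 149 CPM with PE, against 184 and 216 CPM in controls. Both PE values were below both controls, by less than the test could call (log2 fold change -0.34 ± 0.17; 95% interval -0.71 to 0.03; adjusted p = 0.206). It passed without control replicate 1 (-0.45, adjusted p = 0.00885), where the spread again comes from the PE pair alone.

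Mfn2 (ENSRNOG00000046424), whose protein joins outer membranes and also tethers mitochondria to the endoplasmic reticulum, had few counts, 234 and 168 with PE and 221 and 173 in controls, or 4.17 and 3.56 CPM against 4.12 and 3.80 CPM. The log2 fold change was -0.03 ± 0.22, and its 95% interval allowed folds from 0.691 to 1.38 (adjusted p = 0.945). Its sign turned without PE replicate 2 (0.08) and without control replicate 1 (0.03). The log2 ratio of Mfn1 to Mfn2 counts was 5.32 and 5.39 with PE, against 5.48 and 5.83 in controls, a difference of -0.30 in group means (exact permutation test, two-sided, p = 0.333, again the smallest possible; -0.48 without control replicate 1 and -0.13 without control replicate 2). Some other genes of these processes were nearly empty in this table. Examples, chosen after their values were seen, were the fission adaptor gene Mff, with 3 and 6 counts with PE and 1 and 0 in controls, and Yme1l1, a protease that cuts OPA1, with 7 and 2 against 4 and 3. Why these counts were low was not tested, and the settings of the counting are unknown here.

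Opa1 (ENSRNOG00000001717), whose GTPase joins inner membranes and shapes cristae, had 139 and 132 CPM with PE, against 105 and 111 CPM in controls. The groups did not overlap and replicates differed by at most 1.06-fold, yet the size was small (log2 fold change 0.33 ± 0.16; 95% interval -0.02 to 0.67; adjusted p = 0.2). Opa1 passed without control replicate 2 (0.37, adjusted p = 0.0468).

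Tfam (ENSRNOG00000000613) encodes the protein that packages mitochondrial DNA and starts its transcription. It had 31.9 and 28.8 CPM with PE, against 23.3 and 27.3 CPM in controls. The PE values were narrowly above the controls, with a log2 fold change of 0.26 ± 0.17 (95% interval -0.13 to 0.65; adjusted p = 0.376). In all, PE and control libraries did not overlap for 6 of the 10 genes, Pink1, Bnip3, Dnm1l, Mfn1, Opa1 and Tfam, against 56.7% of all genes tested, which is near the same share.

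**Figure D2:**
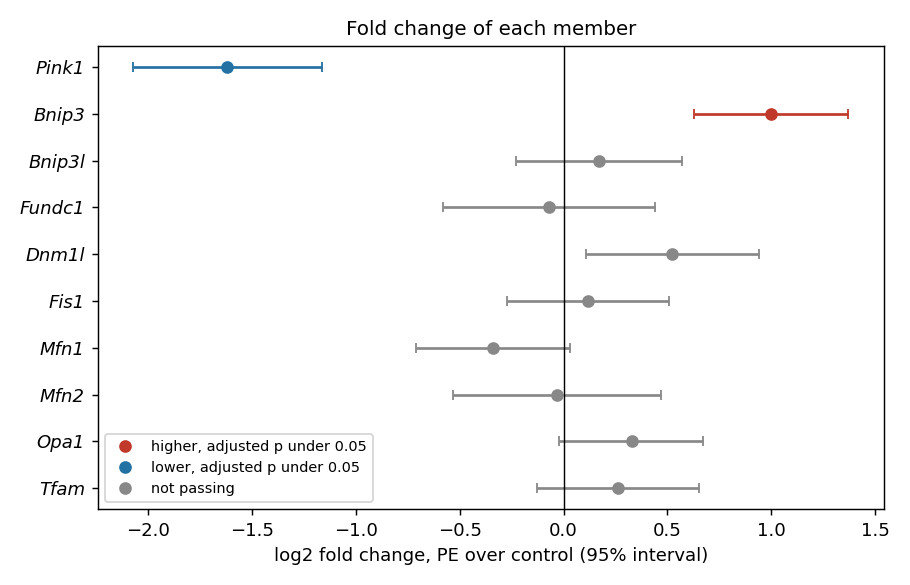
Log2 fold change of PE over control for each gene (points) with its 95% interval (bars), coloured by the edgeR call. Pink1 at -1.62 and Bnip3 at 1.00 stand clear of 0, Dnm1l has an interval of 0.11 to 0.94 without passing across all genes, and the other 7 intervals include 0.

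**Figure D3:**
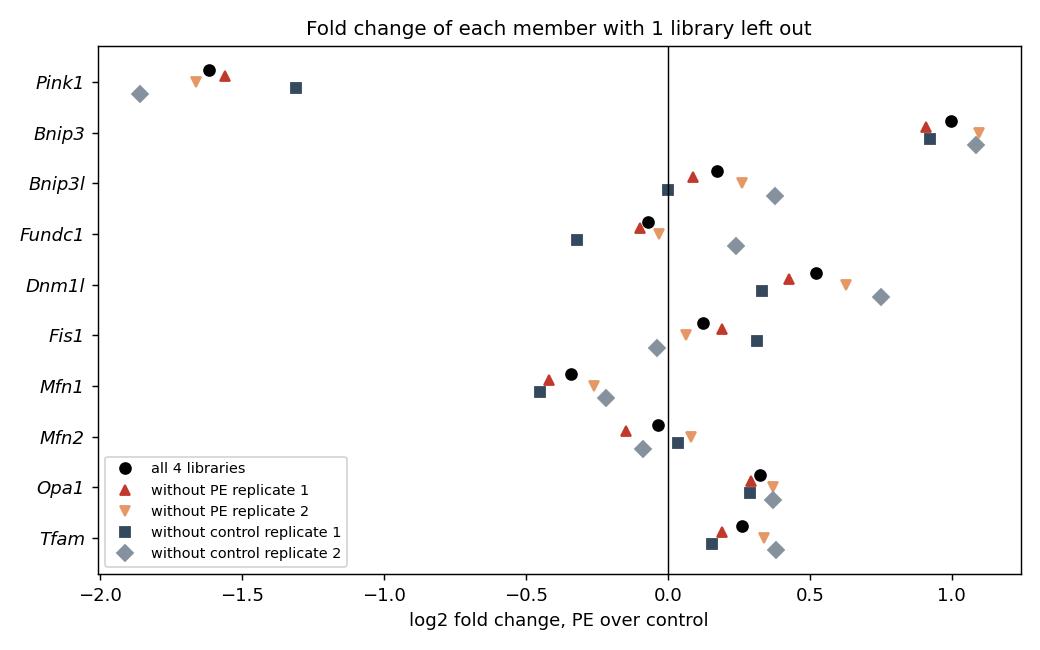
Log2 fold change of PE over control for each gene with all 4 libraries (black circles) and with each library left out. Pink1 stays between -1.86 and -1.31 and Bnip3 keeps its direction, while Fis1, Fundc1 and Mfn2 lie on both sides of 0.

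Other genes were counted from 9 lists, which cover these processes and also include regulators of mitochondrial programmes, mitochondrially encoded genes and hypoxia-responsive genes. Together the lists held 152 tested genes, of which 8 rose and 13 fell, or 13.8%, against 15.7% of all genes, with a median log2 fold change of 0.01. The share was 36.4% for fission, 30.8% for mitochondrially encoded genes, 25% for regulators and 22.2% for hypoxia. It was 12.5% for transport, 7.41% for autophagosomes, 5.26% for fusion, 4.76% for mitochondrial DNA upkeep and 0% for mitophagy. With 1 library left out, 14 of the 152 passed without PE replicate 1 (where 7.64% of all genes passed), 16 without PE replicate 2 (7.98%), 45 without control replicate 1 (30.1%) and 48 without control replicate 2 (30.1%). Of the 10 named genes these fits called more without a control library than without a PE library. The counts of single lists in these fits, given below, are to be read against those shares of all genes.

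Among 11 tested genes of fission adaptors and regulators, 2 rose, 2 fell and 7 did not pass (median 0.17). Ppp2r2b, a regulatory subunit of protein phosphatase 2A with a form that acts at mitochondria, rose to 22.3 and 21.6 CPM with PE, against 6.28 and 8.23 CPM in controls (log2 fold change 1.6 ± 0.2, adjusted p = 0.000511). Mtfr1, a fission regulator, rose by 0.77 ± 0.18 (adjusted p = 0.0166). Akap1, which anchors protein kinase A to the outer membrane, fell to 198 and 207 CPM, against 430 and 337 CPM in controls (-0.92 ± 0.18, adjusted p = 0.0055). Mul1, a ubiquitin and SUMO ligase of the outer membrane, fell by 0.92 ± 0.18 (adjusted p = 0.00728). Ppp2r2b passed with each library left out, but calls of Mtfr1, Akap1 and Mul1 were lost when PE replicate 1 (adjusted p = 0.124, 0.134 and 0.137) or PE replicate 2 (0.221, 0.0924 and 0.081) was left out. Without either single control, 7 genes of the list passed.

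Of 19 tested genes of fusion, OPA1 processing and cristae, 1 rose and 18 did not pass (median 0.10). It was Chchd6, a subunit of the complex that holds cristae junctions, at 8.66 and 11.5 CPM with PE, against 6.54 and 5.40 CPM in controls (0.76 ± 0.22, adjusted p = 0.0442). The call of Chchd6 was lost when PE replicate 1 (adjusted p = 0.0548) or PE replicate 2 (0.464) was left out, and 4 genes of the list passed without control replicate 1 and 6 without control replicate 2.

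None of the 21 genes of mitophagy receptors, adaptors and the PINK1-Parkin route passed in edgeR (median 0.02), with 3 at an unadjusted p under 0.05 and 2 called by DESeq2. The list's 2 most abundant genes were Vcp, an ATPase that extracts ubiquitinated mitofusins, at 0.50 ± 0.16 (adjusted p = 0.0663), and Sqstm1, an adaptor that links ubiquitin to autophagosomes, at -0.39 ± 0.18 (adjusted p = 0.19). More genes of the list were called when either control replicate was left out, as was the case over all genes tested. The Parkin gene was not analysed here, since its symbol was not matched.

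Among 27 autophagosome core genes, 2 fell and 25 did not pass (median -0.02). Ulk1, the kinase that starts autophagosome formation, fell to 44.7 and 47.8 CPM with PE, against 70.8 and 63.7 CPM in controls (-0.54 ± 0.16, adjusted p = 0.0488). Map1lc3b, whose protein coats autophagosomes and is bound by the mitophagy receptors, fell to 152 and 140 CPM, against 197 and 229 CPM (-0.55 ± 0.16, adjusted p = 0.0466). Both were close to the threshold, and both calls were lost when PE replicate 1 (adjusted p = 0.598 for Ulk1 and 0.438 for Map1lc3b) or PE replicate 2 (0.443 and 0.572) was left out. The list had 3 called genes without control replicate 1 and 8 without control replicate 2.

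Of 8 genes of mitochondrial transport along microtubules, 1 rose and 7 did not pass (median 0.09). Kif5b, a kinesin heavy chain that carries mitochondria along microtubules, had 520 and 484 CPM with PE, against 154 and 257 CPM in controls (1.29 ± 0.23, adjusted p = 0.00394). It passed with each library left out, and 3 genes passed without control replicate 2.

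Of 16 tested genes that direct mitochondrial programmes, 4 fell and 12 did not pass (median -0.07). Ppara, a nuclear receptor that drives fatty acid use, fell to 14.5 and 15.7 CPM with PE, against 36.4 and 34.1 CPM in controls (-1.22 ± 0.17, adjusted p = 0.000965). Ppargc1a and Ppargc1b, coactivators of mitochondrial biogenesis, fell by 0.99 ± 0.18 and 0.75 ± 0.17 (adjusted p = 0.00382 and 0.0149). Foxo1, a forkhead factor that responds to insulin signalling, fell by 0.92 ± 0.18 (adjusted p = 0.00588). Without PE replicate 1 Ppara alone of these passed (adjusted p = 0.0228), with Ppargc1a at 0.13, Ppargc1b at 0.468 and Foxo1 at 0.151. Without PE replicate 2 Ppara and Ppargc1a passed, with Ppargc1b at 0.099 and Foxo1 at 0.0738. Without control replicate 2, 7 genes of the list passed.

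Of 21 genes of mitochondrial DNA upkeep and transcription, the group closest to Tfam in role, 1 fell and 20 did not pass (median -0.05). It was Slc25a33, a carrier of pyrimidine nucleotides into mitochondria, at 5.20 and 5.08 CPM with PE, against 8.09 and 8.10 CPM in controls (-0.65 ± 0.20, adjusted p = 0.0495). The call of Slc25a33 was lost when PE replicate 1 (adjusted p = 0.354) or PE replicate 2 (0.38) was left out, and the list had 2 called genes without control replicate 1 and 4 without control replicate 2. The 13 protein genes of the mitochondrial genome all lay below their control level, 4 of them past the threshold, with a median log2 fold change of -1.35, or -0.23 without control replicate 2 and -1.98 without control replicate 1. Mt-nd5, of respiratory complex I, had 1300 and 1290 CPM with PE, against 1840 and 5770 CPM in controls, with a log2 fold change of -1.56. Mt-nd5 passed with each library left out, at -0.51 without control replicate 2 (adjusted p = 0.000467) and -2.15 without control replicate 1. Mt-nd3, another subunit of that complex, was also at -1.56, and at -0.31 without control replicate 2 (adjusted p = 0.112). Mt-co3 and Mt-atp6, of complex IV and the ATP synthase, were at -1.45 and -1.18, and at -0.28 and -0.30 without control replicate 2 (adjusted p = 0.0811 and 0.0801). DESeq2 called none of these 4 genes (adjusted p = 0.153 for Mt-nd5, 0.232 for Mt-nd3, 0.244 for Mt-co3 and 0.254 for Mt-atp6) and called Mt-co1 and Mt-atp8 instead. The list had 10 called genes without PE replicate 1, 11 without PE replicate 2, 13 without control replicate 1 and 2 without control replicate 2. Transcripts of the mitochondrial genome took 4.61% and 4.76% of counts in the PE libraries, against 6.19% and 11.7% in the controls.

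Of 18 hypoxia-responsive genes, listed because Bnip3 is one of that class, 4 rose and 14 did not pass (median 0.32). The share called was 22.2%, against 15.7% of all genes tested. Ldha, the muscle form of lactate dehydrogenase, had 1440 and 1390 CPM with PE, against 736 and 615 CPM in controls (1.06 ± 0.18, adjusted p = 0.00247). P4ha1, a collagen prolyl hydroxylase subunit, Egln3, an oxygen-sensing hydroxylase, and Ero1l, an oxidase of the endoplasmic reticulum, rose by 0.90 ± 0.16, 0.83 ± 0.18 and 0.70 ± 0.17 (adjusted p = 0.00414, 0.011 and 0.0167). Ldha passed with each library left out. Calls of P4ha1, Egln3 and Ero1l were lost when PE replicate 1 (adjusted p = 0.117, 0.0794 and 0.301) or PE replicate 2 (0.0561, 0.186 and 0.193) was left out, and 7 genes of the list passed without either single control.

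**Figure D4:**
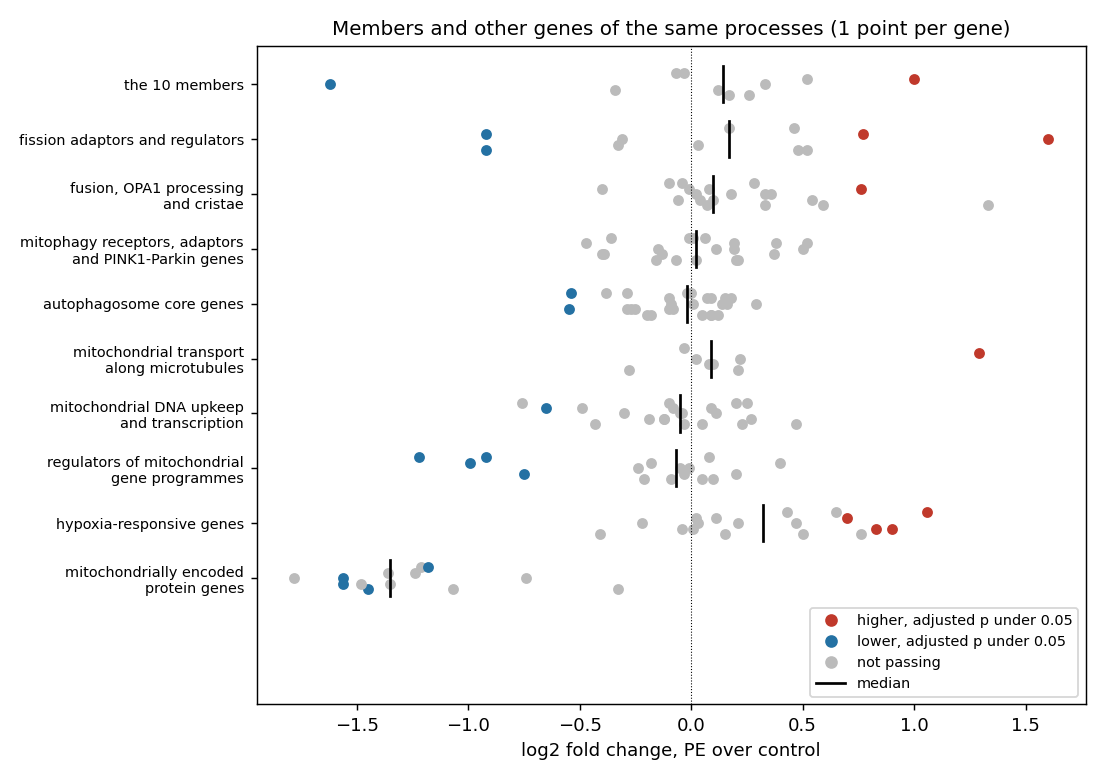
Log2 fold change of PE over control for each tested gene (1 point per gene) of the 10 named genes and the 9 other lists, with the median as a black line and calls in colour. The mitochondrially encoded genes lie apart with a median of -1.35, which is -0.23 without control replicate 2, and the other list medians are between -0.07 and 0.32.

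The genes whose levels followed Pink1 most closely over the 4 libraries, by Euclidean distance of log2 CPM centred on each gene's mean among 11009 genes, were Adra1b, an alpha-adrenergic receptor gene, and Spon2, which encodes a secreted matrix protein, at distances of 0.097 and 0.103. Adra1b had 9.21 and 9.53 CPM with PE, against 36.7 and 24.6 CPM in controls, and so shared both the low PE level and the lower value of control replicate 2. Those nearest to Bnip3 were Gsap and Steap2, a metalloreductase gene, at distances of 0.044 and 0.054. Steap2 had 147 and 131 CPM with PE, against 68.2 and 73.1 CPM in controls. With 4 libraries, many genes can lie close by such a measure.

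The cultures held other cells whose markers moved with PE. For the counts of markers below, 7.39% of all genes tested passed as higher and 8.3% as lower. Summed CPM of 7 cardiomyocyte markers was 10500 and 11500 with PE, against 10700 and 11800 in controls, with 1 of 7 higher. Their log2 fold changes went both ways, 3 above 0 and 4 below, from 0.71 (Myl2, which passed) to -0.54 (Myh6, which did not). Endothelial markers summed to 132 and 136 CPM, against 220 and 218 CPM, with 5 of 7 tested lower. Much of that sum was Kdr, at 69.7 CPM in each PE library, against 123 and 121 CPM in controls. Tek and Egfl7 had log2 fold changes above 0 (0.24 and 0.06, neither passing). Macrophage markers summed to 121 and 125 CPM, against 183 and 208 CPM, with 3 of 8 lower. Fibroblast markers summed to 10100 and 9990 CPM, against 18200 and 16300 CPM, with 2 of 7 tested lower (Col3a1 and Pdgfra). The fibroblast sum was mostly collagen and Postn, and 3 of the 7 log2 fold changes were above 0 (Dcn 0.50, Lum 0.11 and Tcf21 0.04, none passing). Smooth muscle and pericyte markers summed to 4770 and 5580 CPM, against 3210 and 2120 CPM, with 2 of 8 higher and 1 lower. Most of that sum was desmin (Des, also abundant in cardiomyocytes), at 3860 and 4510 CPM with PE, against 2080 and 1310 CPM in controls. Des and Cspg4 were the 2 that passed as higher, and the other 6 log2 fold changes were below 0 (Tagln, at -0.80, passed), opposite to the sum. None of these markers was at 0 in any library, although the collagen gene Col1a2 had as few as 1 count. The part of these cells in the values of Pink1, Bnip3 and the other genes was not tested, and in such bulk samples fewer cells of a type and less RNA per cell cannot be told apart.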

How the data were processed

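Strand-specific RNA-seq of 2 PE and 2 control libraries was analysed, with groups taken from the sample titles. The treatment field of each sample matches its title, but the treatment protocol describes PE for all 4 records, controls included. The authors deposited raw counts per gene. Cutadapt 2.0, STAR 2.4.2a, featureCounts 1.6.4 and the build Rnor_6.0 are named, per the submitters' processing notes. Their settings and the annotation release are not given in the sources. The authors' deposited comparison table, per the file headers, holds a mean signal of scaled counts, a log2 fold change, its standard error and test statistic (scores), and p-values before and after adjustment, and it supplied gene names. Total counts were 56948370 and 48075810 for PE and 51917449 and 45637881 for controls.

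Counts were tested with edgeR 4.0.16 (limma 3.58.1, R 4.3.3), glmQLFit and glmQLFTest, TMM factors and the default filter (minimum count 10, minimum total 15), with Benjamini-Hochberg adjustment over 15257 genes. Of 32883 genes 12217 had no read. CPM are given per library or as mean and SD, and fold changes on the log2 scale set PE over control. Intervals are 95% from the edgeR t distribution. Replicates were no copies of each other (chi-square per degree of freedom 24.9 between PE and 172 between control libraries).

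All 10 genes are named, and from each list up to 4 called genes with the largest change, or the 2 most abundant where none was called, and the 2 genes nearest to each called one (mean log2 CPM of at least 1). The genes and lists were chosen with earlier results of these data known. Sequences are from RefSeq, whose build GRCr8 differs from that of the counts, so it was used for names and promoter windows only. In it no other gene overlaps the 10 genes. Alternatives were DESeq2 1.42.0, other scalings, no filter, a replicate block, leaving out mitochondrial-genome genes, and leaving out each library.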

Additional observations from a re-analysis of the deposited data

How the results depend on the processing

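Of 110 values of the 10 genes under 11 alternatives, 100 kept their direction and side of the threshold. Pink1 passed in every alternative run and Bnip3 in every one but the fit without PE replicate 1. With 1 library left out, log2 fold changes lay on both sides of 0 for Mfn2 (-0.15 to 0.08), Fis1 (-0.04 to 0.31) and Fundc1 (-0.32 to 0.24), and the cause was not tested. With 1 library left out, 1205 to 4755 genes were called in place of 2393. The same fits called 1 to 4 of the 10 genes in place of 2. They called 14 to 48 of the 152 other genes in place of 21. In each of these fits the lone library is assumed to vary like the remaining pair, and the reason for the shifts was not tested. Without a filter 34 of the 152 other genes were called in place of 21, a setting in which 15.4% of all genes passed. Over all alternatives the called genes per list ranged from 1 to 7 for fission (4 as reported), 0 to 6 for fusion (1), 0 to 6 for mitophagy (0), 0 to 8 for autophagosomes (2), 1 to 3 for transport (1), 0 to 4 for mitochondrial DNA upkeep (1), 1 to 7 for regulators (4), 1 to 9 for hypoxia (4) and 2 to 13 for mitochondrially encoded genes (4), which the fit without mitochondrial-genome genes could not test. That last list had 12 called genes with library sizes alone and with no filter, and 2 with DESeq2, neither of them among the 4 reported. Mt-co3 and Mt-atp6 did not pass with DESeq2 size factors (adjusted p = 0.0521 and 0.0538), Chchd6 with library sizes alone (0.0538) or Slc25a33 with DESeq2 (0.0599).

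Replicate numbers are not said to pair the libraries, and deviations of same-numbered libraries correlated at -0.229 across genes. The replicate block called 1964 genes (12.9% of all tested) and 24 of the 152, and changed no call of the 10 genes. Under it Chchd6 (adjusted p = 0.0726), Ulk1 (0.23), Map1lc3b (0.2), Slc25a33 (0.144) and Ero1l (0.0679) did not pass, and 12 in place of 4 mitochondrially encoded genes did. The crossed replicate block, added after seeing the data, called 4677 genes (30.7% of all tested), 51 of the 152 and 3 of the 10 genes. Mfn2 and Fundc1 had the fewest counts of the 10 genes, 168 to 407 a library, and how far depth limits them was not tested.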
